A study of Mus musculus with 43 samples.

Results

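The genes described here are 10 genes of the absorptive colonocyte, the cell that lines most of the colon surface and takes up salt and water from the lumen. They are Car1, Car4, Slc26a3, Slc9a3, Aqp4, Aqp8, Isx, Aoc1, Dmbt1 and Krt20, out of 52636 genes in the organoid table. The 10 genes were chosen by name, as absorptive genes, with their regorafenib response in these same libraries in view. Their regorafenib values are therefore given as a description with no test, and tests are kept for the comparisons that the choice did not use.

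The series holds 24 libraries of bulk RNA sequencing from mouse colon organoids and 19 from mouse colon fibroblasts. Every organoid line came from 1 mouse of 2 months that carried the VilCreERT2 transgene, in which the villin promoter drives a tamoxifen-activated Cre in the intestinal epithelium, and all these mice received tamoxifen. Colonoids came from 3 males with wild-type Apc (lines M41, M40 and M1). Tumoroids came from 1 female (F11) and 2 males (M3 and M14) in which the floxed Apc gene, a brake on Wnt signalling, was deleted. Each line was grown for 6 days with vehicle (Ve, DMSO at 0.5%), 4 µM regorafenib (R4), 8 µM regorafenib (R8) or 1 µM 5-FU, which gave 8 groups of 3 libraries. Regorafenib is a multi-kinase inhibitor, and 5-FU (5-fluorouracil) is a pyrimidine analogue that blocks thymidylate synthesis. With 1 female line in the Apc-deleted group, sex and line cannot be told apart. The fibroblasts are 4 lines from wild-type C57BL/6 mice, kept in culture for 7 days. Their groups are vehicle, regorafenib at 4 µM, autogramin-2 at 1 µM and the pair combined, with 4 libraries each, and regorafenib at 10 µM with 3. Lines M3 and M3(2) came from males of 2 months, and the age behind M1(2) and M11 is not given in the sources used here.

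In the colon, cells leave the cycling lower crypt, differentiate as they move upward and reach the surface as mature absorptive colonocytes. Those cells hold carbonic anhydrases that make bicarbonate and protons from carbon dioxide, and apical exchangers (Slc26a3 for chloride, Slc9a3 for sodium) that use them for electroneutral salt uptake. The homeodomain factors Cdx1 and Cdx2 and the nuclear receptors Hnf4a and Hnf4g are known to maintain the programme of this epithelium. Crypt organoids in a medium rich in Wnt, R-spondin, Noggin and EGF are held close to the crypt state, so mature surface genes can be low in them.

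The values are CP20M, reads per gene scaled to 20000000 counted reads per library, so 20 CP20M equals 1 CPM. Recovered read totals ran from 512592 to 22368233 per organoid library with a median of 15697900. The library of colonoid line M41 at R4 stood apart, with 512592 reads and 39.0 CP20M per read, against at least 4371797 reads in each of the other libraries. A value of 0 allows up to 117 CP20M there (3 reads) and up to 13.7 in the other 23. The epithelial markers Epcam, Cdh1, Krt8, Krt18, Krt19 and Cldn7 were detected in every group, with a sum between 104235 and 348150 CP20M, while the 6 fibroblast markers summed to 118 at most and Lum was at 0 in all 24.

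The label fits part of the list. Car4, Aqp8 and Slc9a3, which mark mature surface colonocytes, stayed at or under 10, 19 and 26 CP20M in all 24 libraries, and Slc26a3 passed 40 CP20M in 1 library. The genes that carried signal were Car1, Isx, Krt20, Aqp4, Aoc1 and Dmbt1. Aqp4 also belongs to a published intestinal stem cell signature that the study used, and Dmbt1 and Aoc1 are made by other epithelial cells too. Slc9a3 was thus near 0 throughout and Slc26a3 was read mainly in colonoid line M40, and the name absorptive colonocyte genes stands here for the list alone.

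Sequence before the transcription start was examined for the members in RefSeq's promoter windows of GRCm38.p6, which held 7 of the 10 genes and none for Car1, Aqp4 and Dmbt1. The windows run from 250 bases before to 50 after the start. The 120 bases before the start of Isx, Krt20 and Slc26a3 are shown, Isx because its fall was the most even across lines, Krt20 because it was the expressed member that moved in both directions, and Slc26a3 because its signal came from 1 line. Capitals mark a CDX motif (TTTATNG) or an HNF1 core site (GTTAAT), searched on both strands.
Isx, chr8:74873054-74873173, plus strand: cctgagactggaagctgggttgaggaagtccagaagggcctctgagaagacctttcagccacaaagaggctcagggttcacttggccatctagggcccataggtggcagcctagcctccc
Krt20, chr11:99438154-99438273, minus strand: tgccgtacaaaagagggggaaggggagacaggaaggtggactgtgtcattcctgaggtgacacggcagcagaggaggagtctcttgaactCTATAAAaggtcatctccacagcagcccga
Slc26a3, chr12:31438099-31438218, plus strand: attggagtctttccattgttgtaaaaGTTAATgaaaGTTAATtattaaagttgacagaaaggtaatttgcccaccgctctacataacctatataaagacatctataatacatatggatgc

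The Isx window held none of the 4 factor motifs searched and no TATA box (TATAAA). Slc26a3 held 2 HNF1 core sites, starting 94 and 84 bases before the start, and a TATA box at 30 to 25 bases before it. Its RefSeq start lies inside the longer GENCODE span of the gene given with its values, so it is not the 5′ end of that gene model. The Krt20 match lies on the opposite strand at 30 to 24 bases before the start and overlaps a TATA box, so the letters fit either motif. Elsewhere a CDX motif was found at the start of Aqp8 and after the start of Car4, the latter again across TATAAA, while Aoc1 and Slc9a3 held none. Of all 32851 promoter windows, 10.9% held the CDX motif, 13.6% the TATA box, 7.10% the HNF1 core site, 3.73% the TCF/LEF motif CTTTGAT and 1.41% the HNF4 motif CAAAGTNCA. A match is a string of letters and was not tested for binding.

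Car1 encodes a cytosolic carbonic anhydrase that is abundant in colonocytes (ENSMUSG00000027556, chr3:14766216-14808368, minus strand). Car1 read 15957, 8991 and 12531 CP20M in vehicle-treated colonoids of lines M41, M40 and M1, and 2577, 1422 and 5597 in tumoroids of F11, M3 and M14. Under R4 it read 352, 1012 and 130 in colonoids and 150, 171 and 178 in tumoroids. Under R8 it read 16, 326 and 696 in colonoids and 122, 249 and 255 in tumoroids. All 12 regorafenib libraries lay below all 6 vehicle libraries, and the difference was −4.60 ± 1.5 in log2(CP20M + 20) (SD, n = 6 lines), a 24.3-fold lower level. With 5-FU the colonoid values were 14422, 6551 and 6559 and the tumoroid values 2440, 2409 and 4165, overlapping vehicle in both genotypes. Car1 was the member with the highest level per exonic kilobase in vehicle, 10010 ± 2791 CP20M per kb in colonoids and 2563 ± 1727.4 in tumoroids (SD, n = 3).

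Car4, the membrane-bound carbonic anhydrase of the apical surface (chr11:84957786-84966044), gave 6 reads in all 24 libraries together. They came from 3 colonoid libraries, at 10 CP20M in M41 with vehicle and 4 and 2 CP20M in M41 and M1 with 5-FU. It was at 0 in all tumoroid libraries. At this depth no difference could be shown for Car4.

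Slc26a3 exchanges luminal chloride for bicarbonate (chr12:31390871-31473917). It read 28, 360 and 5 CP20M in the vehicle-treated colonoids of M41, M40 and M1, and 0 in all 3 vehicle-treated tumoroid lines, where 0 allows up to 3.96 CP20M. Of its 349 reads in the 24 libraries, 303 came from M40 with vehicle. In that line it read 2 CP20M under R4, 0 under R8 and 30 with 5-FU. The vehicle groups of the 2 genotypes did not overlap, although the 5 CP20M of M1 stand on 3 reads. The exact permutation test was run for Slc26a3 because its groups lay apart, and it gave a two-sided p of 0.1. That is the smallest value that 3 against 3 allows. Any 2 such groups without overlap give it, so no conclusion is drawn from the test.

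Slc9a3, the apical sodium-proton exchanger NHE3 (chr13:74121457-74169442), ranged from 0 to 26 CP20M over the 24 libraries with a median of 3.5. Its highest values were 26 in tumoroid line M3 with 5-FU and 16 in colonoid lines M41 with vehicle and M1 with 5-FU. In colonoids of M41, M40 and M1 it read 16, 4 and 9 with vehicle, 0, 0 and 5 at R4 and 2, 0 and 0 at R8, lower in all 3 lines, whereas tumoroid line M3 read 4, 6 and 12. All values stand on 17 reads or fewer per library.

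Aqp4 and Aqp8 are water channels, the first basolateral and the second apical in colonic epithelium. Aqp4 (chr18:15389496-15410982) read 1515, 975 and 2376 CP20M in vehicle-treated colonoids and 1412, 76 and 176 in vehicle-treated tumoroids of F11, M3 and M14. Under R4 and R8 together it lay between 0 and 66 in colonoids and between 0 and 22 in tumoroids. No regorafenib library reached the lowest vehicle library, although the 0 of M41 at R4 allows up to 117 CP20M, and the difference was −4.21 ± 1.64 log2 (SD, n = 6 lines). The 5-FU libraries read 1164, 698 and 649 in colonoids and 1183, 38 and 70 in tumoroids. The tumoroid lines were not alike, since F11 held Aqp4 at the colonoid level and M3 and M14 did not. Aqp8 (chr7:123462291-123468004) stayed between 0 and 19 CP20M and was at 0 in 9 of 24 libraries.

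Isx is an intestine-specific homeobox factor that represses genes of carotenoid uptake and conversion when retinoic acid is ample (chr8:74873173-74893506). It read 1867, 2052 and 1978 CP20M in vehicle-treated colonoids and 2814, 1959 and 1557 in vehicle-treated tumoroids, with no overlap between these 6 and any regorafenib library. Under R4 it read 40, 117 and 79 in colonoids and 426, 377 and 172 in tumoroids. Under R8 it read 56, 148 and 60 in colonoids and 138, 148 and 90 in tumoroids. The difference from vehicle was −3.81 ± 0.71 log2 (SD, n = 6 lines), a 14.0-fold lower level, with all 12 regorafenib libraries below all 12 libraries with vehicle or 5-FU. With 5-FU Isx read 2064, 1334 and 1301 in colonoids and 3017, 1901 and 1574 in tumoroids.

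Aoc1 encodes diamine oxidase, which degrades histamine and putrescine (chr6:48872896-48909188). In vehicle it read 438, 1382 and 631 CP20M in colonoids and 563, 49 and 166 in tumoroids. Under regorafenib it lay between 0 and 40 in colonoids and between 8 and 19 in tumoroids, below the lowest vehicle library, with a difference of −3.43 ± 1.39 log2 (SD, n = 6 lines). With 5-FU the colonoid values were 379, 1233 and 124 and the tumoroid values 1119, 58 and 63. As for Aqp4, the tumoroid line F11 was near the colonoids and M3 was the lowest with vehicle.

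Dmbt1 encodes a secreted scavenger protein of the mucosal surface that binds bacteria (chr7:131032053-131121630). It read 1348, 1069 and 2825 CP20M in vehicle-treated colonoids and 2048, 251 and 295 in vehicle-treated tumoroids. Under R4 it read 781, 62 and 77 in colonoids and 50, 68 and 5 in tumoroids, and under R8 0, 3 and 33 in colonoids and 56, 25 and 4 in tumoroids. The value of 781 is 20 reads in the shallow M41 library, and every other regorafenib library was at 77 or lower. Dmbt1 differed by −4.00 ± 1.17 log2 (SD, n = 6 lines) from vehicle. With 5-FU it read 541, 885 and 353 in colonoids, all below the vehicle-treated colonoids, and 1829, 724 and 220 in tumoroids.

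Krt20, the intermediate filament keratin of differentiated intestinal epithelium (chr11:99428403-99438150, minus strand), behaved unlike the other expressed members. It read 881, 1962 and 655 CP20M in vehicle-treated colonoids and 7, 5 and 166 in vehicle-treated tumoroids. Under R4 the colonoid values were 625, 2386 and 112 and the tumoroid values 13, 24 and 41. Under R8 they were 44, 727 and 23 in colonoids and 8, 10 and 14 in tumoroids. The regorafenib and vehicle libraries overlapped in both genotypes, and over the lines the difference was −1.20 ± 1.47 log2 (SD, n = 6), lower in 4 lines and higher in 2. With 5-FU Krt20 read 240, 2860 and 244 in colonoids and 19, 66 and 200 in tumoroids.

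**Figure D1:**
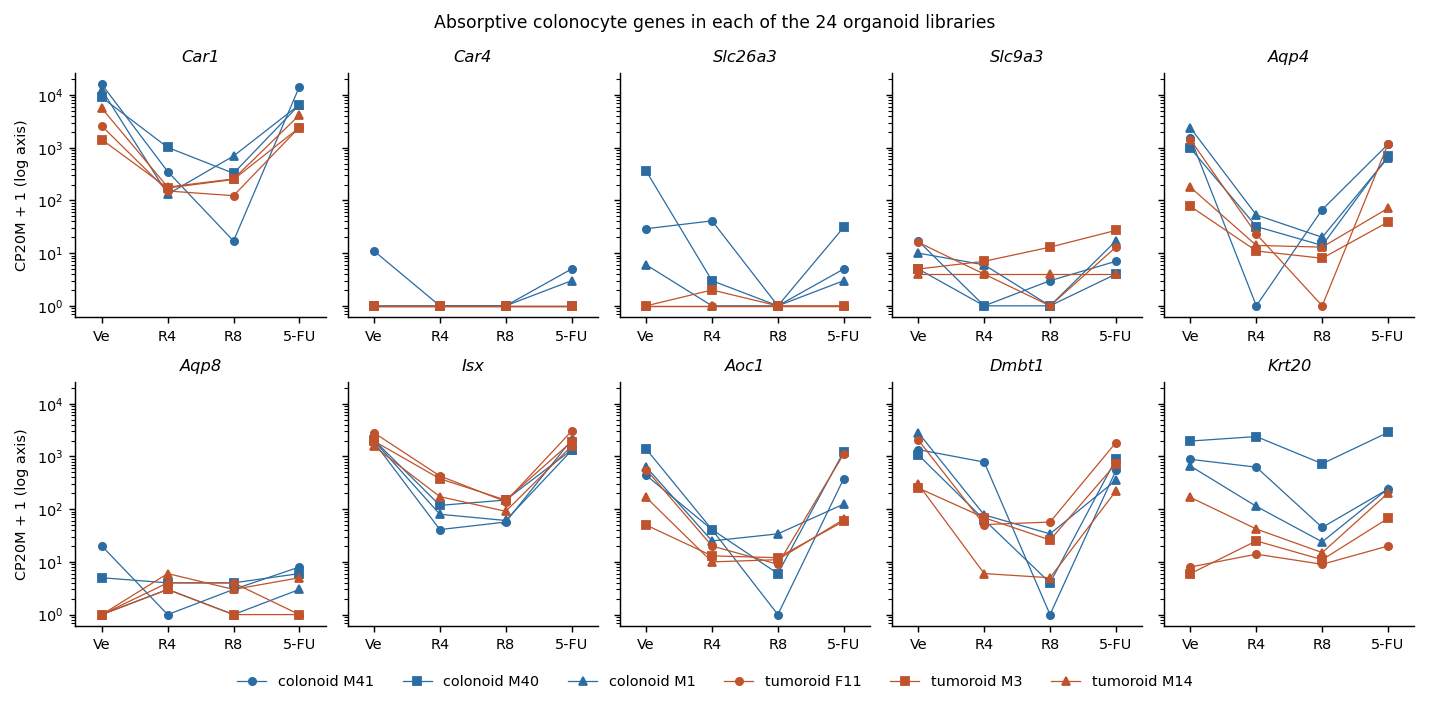
Level of each of the 10 genes in each organoid library (y axis, CP20M + 1 on a log axis) by treatment (x axis: vehicle, 4 µM and 8 µM regorafenib, 1 µM 5-FU). Points are single libraries joined within a line, blue for colonoids and orange for tumoroids. Car1, Isx, Aqp4, Aoc1 and Dmbt1 drop under regorafenib and not to that extent with 5-FU, Krt20 splits by genotype, and Car4, Slc9a3 and Aqp8 stay at 26 CP20M or lower.

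Of the 10 members, 6 passed the filter on low values (200 CP20M or more, equal to 10 CPM, reached in 2 or more organoid libraries), namely Car1, Aqp4, Isx, Aoc1, Krt20 and Dmbt1. Slc26a3 was just outside, with 1 library at 200 CP20M or more, and Car4, Aqp8 and Slc9a3 had none. Just inside were Aoc1 with 7 such libraries and Aqp4 with 8. A member that passed through its vehicle or 5-FU libraries alone was bound to differ, so no count over these 6 is used for regorafenib. As background, the mean of the 4 regorafenib groups against the mean of the 2 vehicle groups called 786 of 11562 genes (6.8%) at an adjusted p under 0.001 and a change of 1.5-fold or more, 3.22% lower and 3.58% higher. TMM scaling gave 573 higher and 326 lower in place of 414 and 372 (the median gene moved by −0.11 log2), and with the line as replicate block 1210 genes were called.

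In vehicle, the genotypes were compared with limma on log2(CP20M + 20), where a gene is called at an adjusted p under 0.01 with a change of at least 1 log2 unit. None of the 6 members was called, against 46 of 11562 genes (0.398%). Krt20 came nearest, at −4.41 log2 in tumoroids (SE 1.14, adjusted p = 0.0484 in limma, n = 3 lines per genotype), and its groups did not overlap. At the looser threshold of an adjusted p under 0.05 with 1.5-fold, which 238 genes (2.06%) passed, Krt20 was the single member called. Its adjusted p ran from 0.0109 to 0.316 over 16 other settings and its log2 fold change from −5.57 to −3.0. Vehicle-treated tumoroids reached 166 CP20M at most for Krt20, under the 200 CP20M of the filter, so it passed through its colonoid libraries. Its genotype tests are therefore not independent of the filter, and no conclusion is drawn from them.

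Car1 was lower in each vehicle-treated tumoroid line than in any vehicle-treated colonoid line, at −2.14 log2 (SE 0.79, limma adjusted p = 0.166). For Aqp4 the difference was −2.36 (SE 0.92, limma adjusted p = 0.194). It rested on M3 and M14, and without F11 it was −3.49 with an adjusted p of 0.00819 in limma. Aoc1 at −1.93 (SE 0.89, limma adjusted p = 0.281) and Dmbt1 at −1.53 (SE 0.89, limma adjusted p = 0.415) overlapped between genotypes through the same line F11. Isx did not differ beyond its spread, at 0.06 log2 (SE 0.37, limma adjusted p = 0.966).

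The 5-FU libraries give a comparison of genotypes in samples that the choice of genes did not use, grown from the same 6 lines. No member was called there, against 4 of 11562 genes (0.0346%), by limma at the thresholds used for vehicle, and 10 genes with the line as replicate block. Krt20 was at −2.69 log2 in tumoroids (SE 1.14, limma adjusted p = 0.704), and its 240 to 2860 CP20M in colonoids did not overlap the 19 to 200 in tumoroids. As in vehicle, its test is not independent of the filter. Car1 was at −1.55 (SE 0.79, limma adjusted p = 0.84), with no overlap between genotypes in the same 6 lines as with vehicle. Groups of 3 against 3 can lie apart by chance, and the share of all genes that did so was not counted. No conclusion is therefore drawn from the lack of overlap for Car1 and Krt20, here or in vehicle. Aqp4 was at −2.17 (SE 0.92) and Aoc1 at −1.10 (SE 0.89), while Isx at 0.44 (SE 0.37) and Dmbt1 at 0.27 (SE 0.89) pointed the other way, with limma adjusted p-values between 0.704 and 0.999 for these 4.

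**Figure D2:**
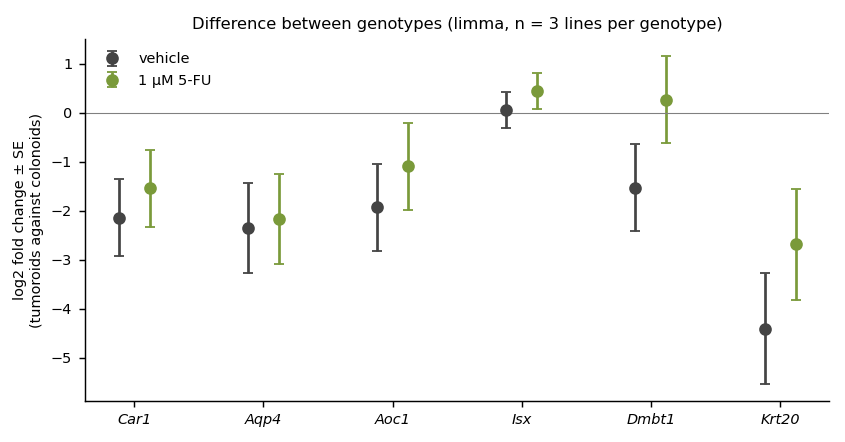
Difference between tumoroids and colonoids for the 6 members above the filter (y axis, log2 fold change from limma, bars are the SE), in vehicle (dark grey) and with 1 µM 5-FU (green), n = 3 lines per genotype. Krt20 lies lowest at −4.41 and −2.69, Car1, Aqp4 and Aoc1 lie below 0 in both, and Isx lies at 0.06 and 0.44.

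Per exonic kilobase, the order in vehicle-treated colonoids was Car1, Isx, Krt20, Aqp4, Aoc1, Dmbt1, Slc26a3, Aqp8, Slc9a3 and Car4. Isx held 1096 ± 51.9 CP20M per kb and Krt20 605 ± 363 (SD, n = 3). Aqp4 at 260 ± 113, Aoc1 at 251 ± 153 and Dmbt1 at 248 ± 134 could not be ordered within their spread. In vehicle-treated tumoroids Isx (1177 ± 358) stood second after Car1, and Krt20 stood sixth with 30.8 ± 47.9 CP20M per kb, not separable from Aoc1 (79.6 ± 82.7), Aqp4 (89.0 ± 119) or Dmbt1 (123 ± 145).

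The genotypes were also compared in how far each member moved under regorafenib, as the difference in tumoroids minus the difference in colonoids. All 6 values were above 0, from 0.93 for Dmbt1 to 1.78 for Aqp4. The median over all genes was also above 0, at 0.10. Car1, Aqp4, Aoc1, Dmbt1 and Krt20 had lower mean levels in vehicle-treated tumoroids, and the scale used understates the change of low genes. The values also reuse the libraries in which the genes were chosen. Their shared sign is therefore not read as a smaller response in tumoroids. No member was called at an adjusted p under 0.05 in limma, where 0 of 11562 genes (0%) were called and 411 had an unadjusted p under 0.05. DESeq2 called 4 genes and the fit with the line as replicate block 7, none of them a member. Isx had the smallest error, 1.09 log2 (SE 0.46, limma adjusted p = 0.997): its difference from vehicle was −4.35 ± 0.53 log2 in colonoids and −3.26 ± 0.28 in tumoroids (SD, n = 3 each). The signs of Aqp4 and Krt20 turned with edgeR and DESeq2, to −0.29 and −0.80 in edgeR. For 5-FU the genotype difference was also called for 0 of 11562 genes (0%), with 87 at an unadjusted p under 0.05 and 1 called by DESeq2, and no member was among them.

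**Figure D3:**
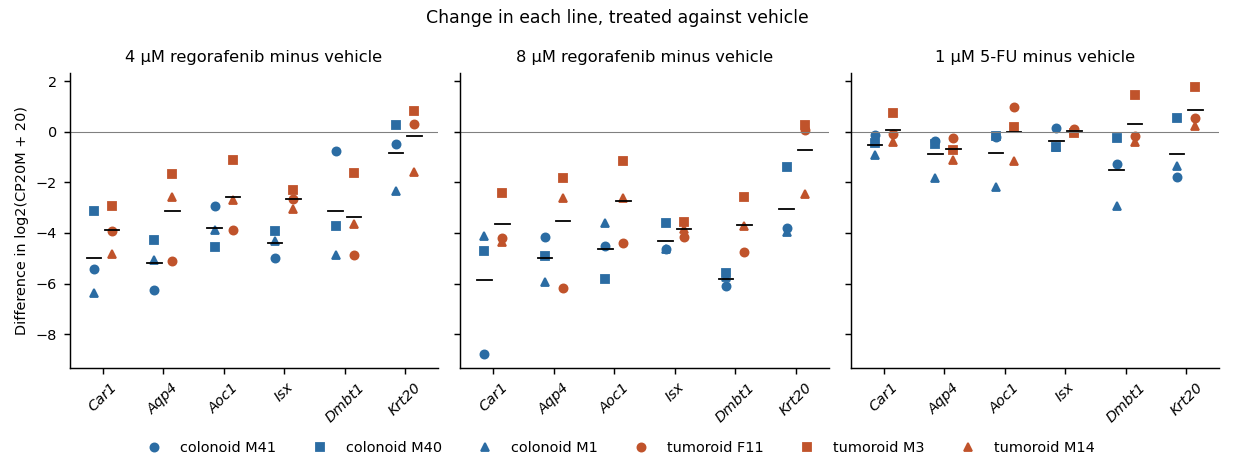
Change in each line against its own vehicle library (y axis, difference in log2(CP20M + 20)) for the 6 members above the filter, at 4 µM regorafenib, 8 µM regorafenib and 1 µM 5-FU. Points are lines (blue colonoids, orange tumoroids) and short black bars are means of 3 lines. Under both doses each line lies below 0 for Car1, Aqp4, Aoc1, Isx and Dmbt1, Krt20 lies on both sides, and with 5-FU the means lie between −1.49 and 0.85.

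The doses were compared as the mean of the R8 groups against the mean of the R4 groups, which is independent of the contrast with vehicle. No member was called by limma at an adjusted p under 0.05 with 1.5-fold, against 98 of 11562 genes (0.848%), 50 higher and 48 lower. With TMM scaling 149 genes were called, 50 higher and 99 lower, and with the line as replicate block 387. Car1 at −0.33 log2 (SE 0.56), Aqp4 at −0.11 (SE 0.65) and Aoc1 at −0.51 (SE 0.63) had limma adjusted p-values between 0.686 and 0.941, and their values at 8 and 4 µM overlapped in colonoids.

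Krt20 was lower at 8 than at 4 µM in all 6 lines, at −1.38 log2 (SE 0.80, limma adjusted p = 0.375). The difference between doses was −2.21 ± 0.97 in colonoids and −0.54 ± 0.30 in tumoroids (SD, n = 3 each), where tumoroids were already at 41 CP20M or lower. Isx in tumoroids read 90 to 148 CP20M at R8 and 172 to 426 at R4 with no overlap, while in colonoids the doses overlapped, and over both genotypes it was at −0.54 (SE 0.26, limma adjusted p = 0.3). Without the M41 library at R4 and with the line as replicate block Isx was at −0.69 with an adjusted p of 0.0331. Dmbt1 was at −1.49 (SE 0.63, limma adjusted p = 0.236), and DESeq2 called it at −2.95 (adjusted p = 0.0348). The M41 library with its 20 reads is among the R4 libraries.

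5-FU was compared with vehicle as the other drug, and this contrast shares the vehicle libraries with the one that chose the genes. None of the 6 members was called by limma, against 272 of 11562 genes (2.35%), 584 with the line as replicate block. Aqp4 was lower with 5-FU in all 6 lines, by 0.80 ± 0.60 log2 (SD, n = 6; limma adjusted p = 0.642). Car1 at −0.21 (SE 0.56), Isx at −0.17 (SE 0.26), Aoc1 at −0.43 (SE 0.63) and Dmbt1 at −0.60 (SE 0.63) had limma adjusted p-values from 0.753 to 0.928. Krt20 was higher in 3 of 3 tumoroid lines and lower in 2 of 3 colonoid lines, with a mean of −0.01 (SE 0.80, limma adjusted p = 0.998). Against the same vehicle libraries, the 5 members other than Krt20 stood at −3.43 to −4.60 log2 under regorafenib and at −0.17 to −0.80 with 5-FU. Krt20 stood at −1.20 and −0.01. The genes were chosen with their regorafenib values in view, so the gap between the drugs is partly set by that choice. It is a description and was not tested.

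Over the 24 libraries, Car1, Aqp4, Isx, Aoc1 and Dmbt1 followed each other with Pearson r between 0.78 and 0.91, and Krt20 followed them with r between 0.15 and 0.52. These values are a description across libraries that share lines and treatments. The 8 non-member genes whose log2 level was most like the mean z-score of the 10 members were Teddm2 (r = 0.93), AW112010 (0.92), Cdx1 (0.92), Ipmk (0.91), Akr1c19 (0.91), Mep1b (0.91), Gm15947 (0.91) and Hnf4g (0.90). Without the M41 library at R4 the 8 values lay between 0.91 and 0.94. The mean over 10 includes the 4 genes near 0, and with the mean of the 6 filtered members alone the 8 genes had r from 0.88 (Mep1b, Teddm2) to 0.93 (Cdx1, Akr1c19). Akr1c19, an aldo-keto reductase, ranged from 1239 to 1509 CP20M in vehicle-treated colonoids and from 93 to 354 in vehicle-treated tumoroids, and from 6 to 138 under regorafenib. Mep1b, which encodes the brush border protease meprin beta, reached 255 CP20M at most.

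**Figure D4:**
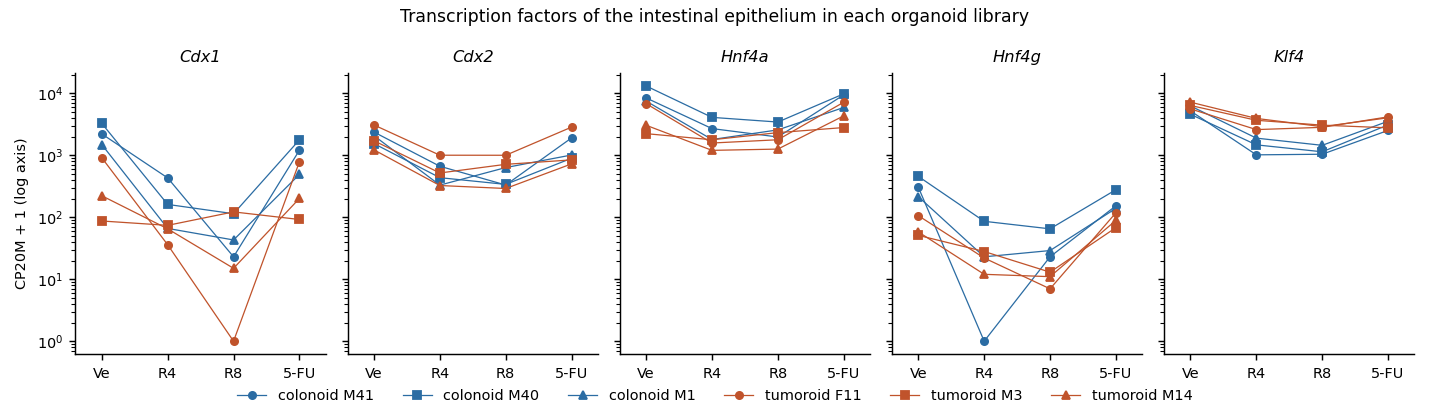
Level of 5 transcription factors of the intestinal epithelium in each organoid library (y axis, CP20M + 1 on a log axis) by treatment (x axis), with lines joined as in the plot of the 10 genes. Cdx2 and Klf4 are lower with regorafenib than with vehicle in every line, while Cdx1 and Hnf4a in tumoroid line M3 stay near their vehicle level.

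Of 17 transcription factors of the colonic epithelium listed for this lineage, 16 passed the filter, and 7 were called lower and 0 higher under regorafenib by limma, with a median of −0.77 log2 against −0.11 over all genes. The background was 3.22% lower. Hnf4g and Cdx1 reached 200 CP20M in fewer than 2 regorafenib libraries and so passed the filter through the groups where they were high. Their regorafenib tests are not independent of that route, and no conclusion is drawn from them. Of the other 14 factors 5 were called lower (median −0.72). This list and the others below were written with earlier results of these libraries known. Their counts and p-values under regorafenib are therefore a description beside the background, and no conclusion about a list is drawn from them. Cdx1 had the largest difference, −3.28 log2 (SE 0.52), from 1484 to 3262 CP20M in vehicle-treated colonoids to 22 to 113 at R8. Its tumoroid lines differed, at 909, 86 and 221 in vehicle for F11, M3 and M14, and M3 read 121 at R8. Cdx2 was called lower, from 1221 to 3080 in vehicle to 290 to 1001 under regorafenib, −1.89 log2 (SE 0.32, limma adjusted p = 0.000237).

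Hnf4g was at −2.05 (SE 0.30), and Hnf4a was also called lower, at −1.48 (SE 0.25, limma adjusted p = 0.000191). Hnf4a in M3 read 2231 with vehicle, 1778 at R4 and 2318 at R8, whereas it was lower at both doses in the other 5 lines. Klf4, a zinc finger factor of differentiated epithelium, was at −1.51 (SE 0.14, limma adjusted p = 4.77e-07), and the ETS factor Elf3 at −1.43 (SE 0.16, limma adjusted p = 4.36e-06). The last of the 7 was Gata6, named after its value was seen. Klf4 was also called lower with 5-FU, at −0.81 (SE 0.16, limma adjusted p = 0.00977), the single one of the 16 factors to pass there, and that call was lost without M1, M3 or M14. Leaving out 1 line at a time, between 3 (without M40, M1 or M14) and 6 of the factors were called under regorafenib, and Klf4 and Elf3 were called in each of 16 other settings.

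Of 29 genes of the apical surface and of colonocyte differentiation, 18 passed the filter and 5 were called lower and 0 higher under regorafenib, against 3.22% lower over all genes (median −1.33 log2 against −0.11). Myo1a, Selenbp1 and Cyp2c55 passed the filter through the groups where they were high. Their regorafenib tests are not independent of that route, and no conclusion is drawn from them. Of the other 15 genes 4 were called (median −0.77). The transmembrane mucin Muc13 was at −3.38 (SE 0.43), Plac8 at −3.13 (SE 0.41), the brush border myosin Myo1a at −2.89 (SE 0.54), the adhesion receptor Ceacam1 at −2.51 (SE 0.28) and the microvillar protocadherin Cdhr5 at −2.39 (SE 0.41), with limma adjusted p-values from 4.03e-06 to 0.000533. Muc13 went from 4413 to 6883 CP20M in vehicle-treated colonoids to 79 to 989 at R8. Muc13, Plac8 and Ceacam1 were called in each of the 16 other settings, Myo1a in 11 and Cdhr5 in 12. With the line as replicate block 9 of the 18 were called, and with 1 line left out between 3 (without M40, F11 or M14) and 6. Between genotypes 1 gene of this list was called in vehicle, Cyp2c55, a cytochrome P450 of the colon, which read 92 to 686 CP20M in colonoids and was at 0 in all 3 tumoroid lines (limma adjusted p = 0.00648). At 0, the vehicle-treated tumoroids could not bring Cyp2c55 past the filter. This call is therefore not independent of the filter, and no conclusion is drawn from it. That call was lost when 5 of the 6 lines were left out in turn, with M1 as the exception.

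Of 24 genes of ion and water transport, 14 passed the filter and 2 were called under regorafenib, 1 in each direction, with a median of −0.51 log2. With 6.8% called over all genes, a count of 2 in 14 is near the background. Atp1b1, the beta subunit of the sodium pump, was at −1.38 (SE 0.25, limma adjusted p = 0.00046), and Slc9a3r2, a scaffold that binds Slc9a3, was at 0.97 (SE 0.17, limma adjusted p = 0.000256). These 2 calls did not hold with each line left out, where 2 of the list were called without F11 and 0 without any other line, and 5 were called with the line as replicate block. Slc9a2, a second sodium-proton exchanger, was the 1 gene of this list called between doses, at −1.01 from 4 to 8 µM (SE 0.21, limma adjusted p = 0.0234).

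The B27 supplement of the medium was the version without vitamin A, and Isx responds to retinoic acid, so 12 genes of retinoid handling were read as well. Of the 5 that passed the filter, 2 were called lower under regorafenib (background 3.22%), Dhrs3, a retinal reductase, at −2.60 (SE 0.47, limma adjusted p = 0.000388), and the retinoic acid receptor Rarg at −0.96 (SE 0.13, limma adjusted p = 3.23e-05). Leaving out 1 line at a time gave between 0 and 2 calls, the lowest without M14. Dhrs3 read 463 to 1201 CP20M in vehicle-treated colonoids and 1490 to 2450 in vehicle-treated tumoroids, the reverse of the order seen for Car1, and its genotype difference was not called.

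**Figure D5:**
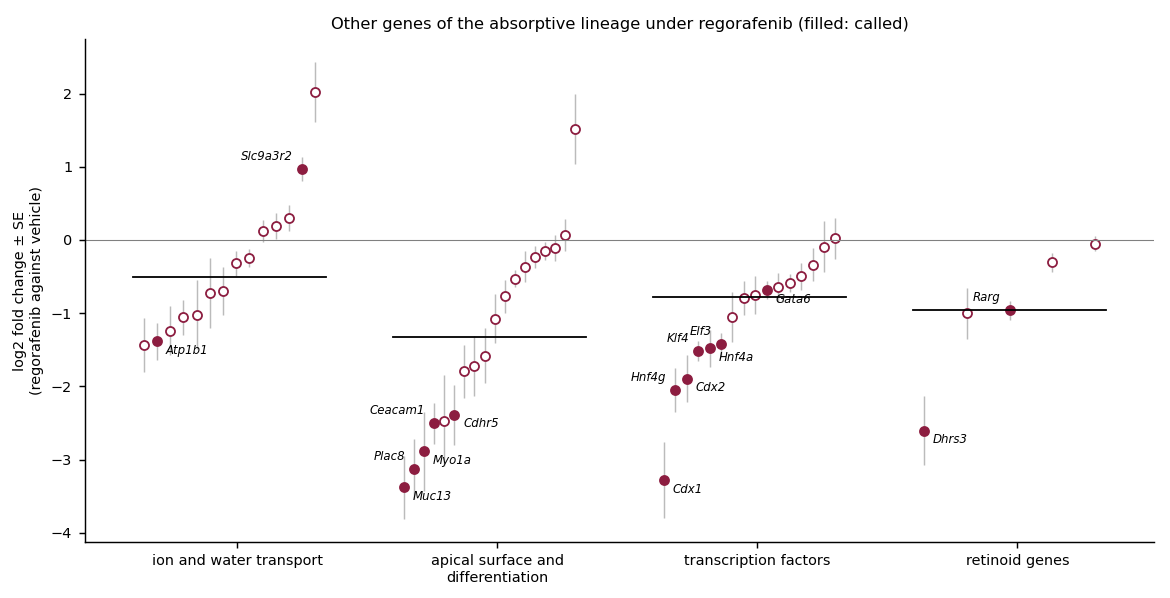
Change of the other genes of the lineage under regorafenib (y axis, log2 fold change from limma, grey bars are the SE), in 4 lists (x axis). Filled points were called at an adjusted p under 0.001 with 1.5-fold and carry their names, open points were not, and black lines are list medians. Muc13 at −3.38 and Cdx1 at −3.28 lie lowest, and Slc9a3r2 at 0.97 is the called gene above 0. Cdx1, Hnf4g and Myo1a passed the filter through the groups where they were high, so no conclusion is drawn from their calls.

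Markers of other cell types were summed in CP20M beside the members. The 8 goblet markers summed to 1588 to 19638 CP20M in vehicle-treated colonoids, 103 to 1761 at R4, which overlaps vehicle, and 68 to 202 at R8. In tumoroids they summed to 69 to 415 with vehicle, 100 to 174 at R4 and 73 to 230 at R8, overlapping, while the members' sum went from 3766 to 9436 with vehicle to 335 to 462 at R8. The 7 enteroendocrine markers summed to 70 to 1801 in vehicle-treated colonoids, 16 to 785 at R4 and 46 to 265 at R8, where Gcg and Neurod1 were at 0. In tumoroids these markers summed to 6 to 84 with vehicle, 0 to 69 at R4 and 0 to 81 at R8. The 6 stem markers summed to 5724 to 11058 in vehicle-treated colonoids, 4334 to 10417 at R4 and 8173 to 9601 at R8. Their sum in tumoroids was 16804 to 25125 with vehicle, 16458 to 21234 at R4 and 12665 to 23565 at R8. Rnf43, Axin2 and Lrig1 carry this sum, with medians of 5825, 3368 and 2672 CP20M over the 24 libraries. Lgr5, Smoc2 and Ascl2, with medians of 423.5, 98.5 and 90.5, can change without moving it. The study reports Ascl2, and also the member Aqp4, among stem signature genes lowered by regorafenib in both organoid types. The 6 cycling markers summed to 3323 to 14259 in vehicle-treated colonoids, 1527 to 4463 at R4 and 2235 to 3360 at R8. Tumoroids had sums of 2310, 2728 and 35475 with vehicle and 5049 to 10224 under regorafenib, above the vehicle level of all lines but 1. The part of these shifts in the results for the members was not tested. In bulk libraries fewer absorptive cells and less RNA of these genes per cell cannot be told apart. The 7 small intestinal markers summed to 96 at most, with Sis at 7 or lower.

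In the 19 fibroblast libraries the members other than Krt20 and Aqp8 stayed at 13 CP20M or lower. Aqp8 reached 32 and was at 0 in 9 libraries. Krt20 was read in all 19, from 15 to 213 CP20M with a median of 94, which lies above the vehicle-treated tumoroids of F11 and M3 and below every vehicle-treated colonoid line.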

How the data were processed

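RNA was sequenced from 24 organoid and 19 fibroblast libraries. The deposited values are a signal, CP20M, which the authors made by scaling read counts per gene to 20000000 counted reads and rounding. The study's legends define CP20M per kilobase of transcript as well, but each organoid library summed to between 20006722 and 20019739 and 1 step per library held for all genes, so no division by length was applied in these tables, and the per-kilobase levels rest on that. The submitters' processing notes name Trimmomatic 0.36, STAR 2.5.3a, HTSeq 0.9.1, GRCm38 and Ensembl 90. Whether counting used strand is not given in the sources used here, and the labels and the methods name different library kits. Whole reads were recovered from the step between low values (99.7% to 100% of values whole per organoid library).

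Libraries were grouped by genotype and treatment labels. The titles of the 3 tumoroid 5-FU libraries read colonoid, and the genotype label was followed. limma 3.58.1 (R 4.3.3) was fitted to log2(CP20M + 20) of all 11562 genes with at least 200 CP20M in 2 libraries, with 8 groups, a trended prior and Benjamini-Hochberg adjustment, and adjusted p-values come from this fit unless edgeR 4.0.16 or DESeq2 1.42.0 is named. The fold change on this scale understates the change of low genes. Exact permutation tests used scipy 1.17.1, and figures and summaries Python 3.11.15. Intervals and limits for 0 cover counting error only.

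All 10 members were named, with up to 6 called genes per list and comparison of largest change, and the 8 genes of most like pattern. Members and lists were chosen with earlier results of these data known. Libraries of 1 line come from the same mouse, and their deviations from the group means correlated with a median r of 0.50 over 36 pairs (34 above 0.1), so the line served as replicate block in an alternative. Other alternatives were pseudocounts of 2 and 100, no filter, TMM factors, fits on the compared groups alone, the count tests, each line left out and the shallow M41 library left out. Replicates are separate mice, 1 per line.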

Additional observations from a re-analysis of the deposited data

Results flagged for a closer look

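In the fibroblast libraries, Krt20 was read above the limit that 0 allows in all 19, with a median of 94 CP20M and a range of 15 to 213, although the comparisons above use organoids alone. Car4 stood at 13 CP20M in 1 vehicle-treated fibroblast library, of line M1(2), against 0, 2 and 2 in the other libraries of that group. The same line read 11 CP20M with autogramin-2 alone and 3 with 4 µM regorafenib. It read 0 with 10 µM regorafenib and with the pair combined. Aqp8 stood at 25 CP20M in 1 fibroblast library with 4 µM regorafenib and autogramin-2 (an inhibitor of cholesterol transfer) against 0 in the other 3. The last 2 were marked by the gap of 1 library to its group, and 11 groups of 4 were examined. The limit used marks about 1 of 20 groups of normally distributed values. These values are counts near 0, where a group with 3 libraries at 0 always passes the limit. That rate therefore does not hold for them, and no conclusion is drawn from the marks.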

How the results depend on the processing

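No member call was made in the 6 tested comparisons. Of 672 member values under the alternatives 644 stayed the same, 3 passed a threshold, 3 moved and 22 reversed. In the tested comparisons, the same means an unchanged direction and still no call. The 96 regorafenib values have no threshold. For them the same (93 values) means a shift smaller than the SD of the gene across lines, and moved means a larger shift in an unchanged direction. The causes were not tested beyond what a setting's own construction shows. A member was called in vehicle between genotypes at the looser threshold (1, Krt20) and without F11 (range 0 to 1 with each line left out), and between doses by DESeq2 (1) and without the M41 library with the replicate block (1). The Krt20 call and the call of Aqp4 without F11 are not independent of the filter. Reversed were Aoc1 with 5-FU (0.076 in edgeR, 0.092 in DESeq2), Krt20 with 5-FU (0.34 at a pseudocount of 2, 0.31 in edgeR, 0.32 in DESeq2), and the genotype difference in the regorafenib response of Aqp4 (−0.29 and −0.24) and Krt20 (−0.80 and −0.81 in edgeR and DESeq2). With each line left out, Isx between genotypes in vehicle ran from −0.17 to 0.26, Dmbt1 between genotypes in 5-FU from −0.44 to 1.03, Car1 between doses from −1.12 to 0.29, Aqp4 between doses from −0.59 to 0.16, Krt20 with 5-FU from −0.36 to 0.22 and Aqp4 in the genotype difference of the 5-FU response from −0.28 to 0.46. Moved were Aoc1 under regorafenib (−5.02 in edgeR, −4.94 in DESeq2) and Dmbt1 (−2.79 at a pseudocount of 100).

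Counts over all genes moved more. Between genotypes in vehicle (46), 7 genes were called at a pseudocount of 2, 21 without the filter, 0 on the compared groups alone, 239 by DESeq2, 100 without the M41 library, 121 with the block as well, 238 at the looser threshold, and 4 (without M3 or M14) to 89 (without M1) with a line left out. Between genotypes in 5-FU (4) these were 2 at a pseudocount of 2, 10 with the replicate block, 0 on the compared groups, 2 by edgeR, 49 by DESeq2, 12 without the M41 library with the block, 16 at the looser threshold, and 1 to 25 (without M1). Between doses (98), 52 without the filter, 149 with TMM, 387 with the block, 16 on the compared groups, 168 by edgeR, 334 by DESeq2, 169 without the M41 library, 399 with the block as well, and 4 (without M14) to 92 were called. For 5-FU (272) they were 139 without the filter, 584 with the block, 427 by edgeR, 590 by DESeq2, 495 without the M41 library, 814 with the block as well, and 24 (without M1) to 257. For regorafenib (786) they were 1210 with the block, 1587 by DESeq2, 1208 without the M41 library, 1743 with the block as well, 1949 at the looser threshold, and 290 (without M14) to 787. For the genotype difference in the regorafenib response (0) they were 7 with the block, 1 on the compared groups, 4 by DESeq2, 14 without the M41 library with the block, and 0 to 7 (without M1), and in the 5-FU response (0) 1 by DESeq2. The replicate block changed no other member call. Depth limits Car4, Aqp8, Slc9a3 and Slc26a3, which were near the value of 3 reads in most libraries, and every value of M41 at 4 µM.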
